A study of Mus musculus with 2 samples.

Results

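Immunoglobulin transcripts, their joining chain and their epithelial transporter were examined in mammary epithelial cells of Cuzd1-null mice and their heterozygous littermates. The 9 genes are the heavy chains Ighm, Igha and Ighg3, the light chain genes Igk, Igkv8-30 and Iglv1, the joining chain Jchain, the plasma cell chaperone Mzb1 and the polymeric immunoglobulin receptor Pigr. They were chosen by gene symbol, as a group selected on the signals of these same 2 arrays, so every difference between the genotypes given for them is a description and none was tested. Among 45037 non-control probe sets, 30 carried 1 of these symbols alone, and the 9 genes stand among 18193 genes with a probe set.

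The Cuzd1-null mice carry a knockout of Cuzd1, which encodes a protein with a CUB and a zona pellucida-like domain, and their littermates are heterozygous for it, so no wild-type gland was measured. Both genotypes are predominantly C57BL/6 and were mated to fertile males, and inguinal glands were taken on day 18 of pregnancy. The glands were minced and digested with collagenase and hyaluronidase. No cell sort is recorded, so the preparation can hold cells other than epithelium. RNA of 5 mice of each genotype was pooled and read on 1 array, which leaves no replicate error and limits the precision of every value.

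Plasma cells, the antibody-secreting descendants of B cells, settle in the mammary gland during pregnancy and lactation. They assemble heavy and light chains, and the J chain links the units of IgM and IgA into polymers. The polymeric immunoglobulin receptor on the basal side of the epithelial cell binds these polymers, carries them through the cell and releases them into milk. The inguinal gland of mice also holds a lymph node, which is rich in B cells.

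Promoters from the RefSeq promoter table are shown for 2 members alone, the J chain of antibody-secreting cells and the receptor of the epithelium. Each is the 250 bases before the annotated start in GRCm38.p6, 5′ to 3′ on the gene's strand. Jchain lies on the minus strand at chr5:88527898-88528147 and Pigr on the plus strand at chr1:130826434-130826683. Capitals mark an E-box.

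Jchain: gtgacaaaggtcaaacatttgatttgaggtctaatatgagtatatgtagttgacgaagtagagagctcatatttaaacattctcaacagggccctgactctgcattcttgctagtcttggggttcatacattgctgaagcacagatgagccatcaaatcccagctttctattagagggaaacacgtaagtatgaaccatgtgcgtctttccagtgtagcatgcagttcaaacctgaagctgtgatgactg

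Pigr: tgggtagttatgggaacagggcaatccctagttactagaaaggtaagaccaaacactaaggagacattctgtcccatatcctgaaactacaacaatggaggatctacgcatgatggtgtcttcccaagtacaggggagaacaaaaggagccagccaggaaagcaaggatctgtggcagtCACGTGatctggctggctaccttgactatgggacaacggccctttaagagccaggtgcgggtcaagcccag

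Both strands were searched for 4 motifs, none of which overlapped another here. The E-box CACGTG, a site of the USF factors, occurred 1 time in the Pigr window, its first base lying 71 bases before the start, and is present in 6.02% of 32851 promoter windows of this length. The octamer ATGCAAAT of immunoglobulin promoters (1.60% of windows), the PU-box core GAGGAA (23.3%) and the STAT site TTCNNNGAA (7.02%) had no match in either window. Promoters of the other 7 members are not analysed here.

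The dimmer signals of an array are largely background. A floor was therefore set at the median of each array, 32.5 intensity units for Cuzd1-null and 34.2 units for Cuzd1-heterozygous, and a probe set above it on either array counted as measured. Of the 30 member probe sets, 18 were measured, 13 of them on both arrays and 5 on the null array alone, and 12 were below both floors. For the 5, the fold is a lower bound and is written "at least". Passing on the null array alone fixed the direction of these 5, whose null signals lay above both floor values.

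**Figure D1:**
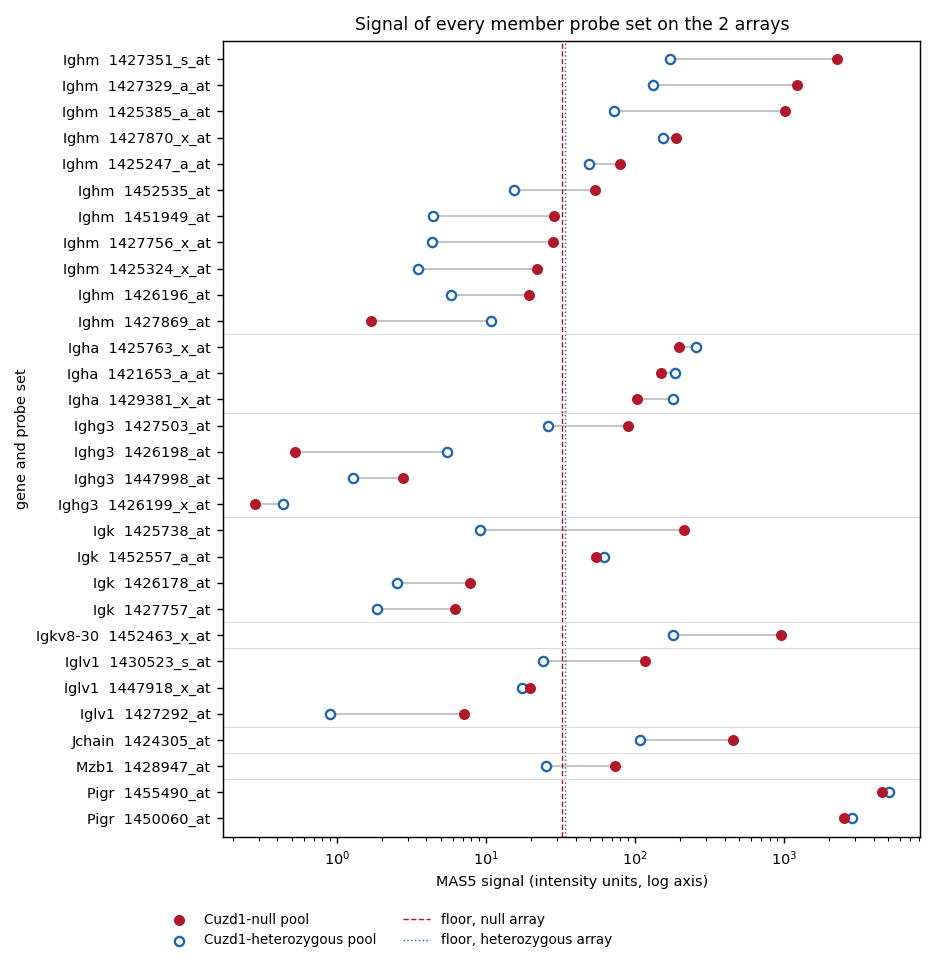
MAS5 signal in intensity units (log axis) of all 30 member probe sets, with 1 filled point for the Cuzd1-null pool and 1 open point for the Cuzd1-heterozygous pool, and the 2 floors as vertical lines. The widest gaps above the floors are at 3 Ighm probe sets, Igkv8-30 and Jchain, while the points of Igha and Pigr lie close together, the null pool lower as deposited (for Pigr not when rescaled to the hybridization controls).

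Ighm, the heavy chain of IgM, had the highest ratios among probe sets above both floors. Its probe set 1427351_s_at read 2252 units in Cuzd1-null cells and 172 units in Cuzd1-heterozygous cells, 13.1-fold higher in the null pool. The next, 1427329_a_at, read 1216 units in null cells and 133 units in heterozygous cells, 9.13-fold higher. Probe set 1425385_a_at read 1015 units in null cells and 72.5 units in heterozygous cells, 14.0-fold higher. These 3 held ranks 2, 3 and 1 among the ratios of the 20776 probe sets above both floors.

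The remaining Ighm probe sets differed less. Probe set 1427870_x_at read 189 units in null cells and 155 units in heterozygous cells, a log2 ratio of 0.28. Probe set 1425247_a_at read 79.6 units in null cells and 49.1 units in heterozygous cells, a log2 ratio of 0.70. Probe set 1452535_at read 53.9 units in null cells and 15.4 units in heterozygous cells, the second of these below the floor, which makes the difference at least 1.57-fold. All 6 measured Ighm probe sets were therefore above 0, over a range of log2 ratios from 0.28 to 3.81, and 5 more were below both floors. Heavy chain transcripts differ in their variable segments and in membrane and secreted ends, and the sources used here do not say which of these each probe set reads.

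Igha, the heavy chain of IgA a class carried into milk, was lower in the null pool at each of its 3 probe sets. Probe set 1425763_x_at read 197 units in Cuzd1-null cells and 257 units in Cuzd1-heterozygous cells, a log2 ratio of -0.38. Probe set 1421653_a_at read 149 units in null cells and 185 units in heterozygous cells, a log2 ratio of -0.32. Probe set 1429381_x_at read 103 units in null cells and 180 units in heterozygous cells, a log2 ratio of -0.80. None was 2-fold apart, and the brightest had -0.16 when rescaled to the hybridization controls. Among the 1000 measured probe sets nearest in signal to each, the robust SD of the log2 ratios was 0.29, 0.31 and 0.32. In size, 2 of the 3 differences are near that spread and 1429381_x_at is beyond it. The spread is between probe sets and is not replicate error, and the 3 probe sets read the same 2 pools.

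Ighg3, the heavy chain of IgG3, was measured at 1 of 4 probe sets. There, 1427503_at read 90.3 units in null cells and 26.3 units in heterozygous cells, at least 2.64-fold higher in null. The robust SD of log2 ratios at that signal was 0.50. The heavy chains together had 10 measured probe sets of 18, of which 4 were higher by 2-fold or more and 0 were lower by that much. Over all 24260 measured probe sets, 0.965% were that much higher and 1.19% that much lower.

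Light chain transcripts were at least 2-fold higher in the null pool at 3 of 4 measured probe sets, beside 0.965% of all measured probe sets. Of the 3, 2 passed the floor on the null array alone, which fixed their direction. The 2 above both floors went in opposite directions. Igkv8-30, a kappa variable segment, read 951 units in Cuzd1-null cells and 181 units in Cuzd1-heterozygous cells, 5.27-fold higher. Its only probe set is 1452463_x_at, whose suffix marks probes that can bind several transcripts. Igk, the kappa locus, read 213 units in null cells and 9.09 units in heterozygous cells at 1425738_at, at least 6.23-fold higher. Its probe set 1452557_a_at went the other way, with 54.7 units in null cells and 61.9 units in heterozygous cells, a log2 ratio of -0.18. Iglv1, a lambda variable segment, read 116 units in null cells and 24.0 units in heterozygous cells, at least 3.40-fold higher. That was at 1430523_s_at, whose suffix is also given to probes that can bind several transcripts, and its 2 other probe sets were below both floors.

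Probe sets annotated to several immunoglobulin genes name no single gene, but their values stand beside the kappa result. Of 13 such probe sets, 5 were measured and 4 of these were at least 2-fold higher in null, beside 0.965% of all measured probe sets, 1 of the 4 being above the floor on the null array alone. The 3 brightest share 1 annotation to kappa variable, joining and constant genes. They read 3345, 3641 and 2494 units in Cuzd1-null cells, against 580, 784 and 628 units in Cuzd1-heterozygous cells in the same order. Those are folds of 5.77, 4.64 and 3.97, around the 5.27-fold of Igkv8-30. Related kappa transcripts can bind to each of these probe sets, so the readings are not independent.

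A further 19 probe sets carried the single symbol of another immunoglobulin gene, and 8 were measured. Igkv14-111, a kappa segment, was the 1 at least 2-fold apart, at 81.5 units in null cells and 16.03 units in heterozygous cells, at least 2.38-fold higher. The other 7 had log2 ratios from -0.53, at Igll1, a surrogate light chain of early B cells, to 0.96, at Igkv9-120, whose other measured probe set had -0.25. Both ends are bounds: Igll1 passed the floor on the heterozygous array alone, and the Igkv9-120 probe set at 0.96 on the null array alone. Over all 58 immunoglobulin probe sets, 27 were measured, 20 of them above 0 and 7 below. Many of the 20 passed the floor on the null array alone, which fixed their direction, so nothing is read from this split.

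Jchain, which links IgM and IgA units, read 458 units in Cuzd1-null cells and 108 units in Cuzd1-heterozygous cells, 4.25-fold higher. The robust SD of log2 ratios at its signal was 0.28, against its ratio of 2.09, which ranked 10 of 20776. Mzb1, an endoplasmic reticulum protein of marginal zone B cells and plasma cells that aids IgM assembly, read 73.8 units in null cells and 25.2 units in heterozygous cells, at least 2.16-fold higher. The robust SD at its signal was 0.54. Each gene has 1 probe set, so neither ratio can be set against a second reading.

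Pigr, the epithelial receptor that carries polymeric IgA and IgM into milk, was close to equal in both pools. Probe set 1455490_at read 4543 units in Cuzd1-null cells and 5041 units in Cuzd1-heterozygous cells, and 1450060_at read 2528 units in null cells and 2865 units in heterozygous cells. The log2 ratios were -0.15 and -0.18, against robust SDs of 0.17 and 0.20 at those signals. When the arrays were rescaled to the hybridization controls the first of these ratios was 0.08, so no direction is given for Pigr.

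Of the 18 measured member probe sets, 9 were higher in null by 2-fold or more and 0 were lower by that much, beside 0.965% higher and 1.19% lower of all measured probe sets. Because the members were selected on this same contrast, nothing is read from the gap between those shares. Their median log2 ratio was 0.90, against 0.00 over all measured probe sets. Of the 20 highest ratios among probe sets above both floors, 5 belonged to members and 3 to the shared kappa probe sets. Leaving out probe sets with the suffixes _x_at and _s_at, which the manufacturer gives to probes that can bind several transcripts, left 6 of 12 at least 2-fold higher. Over all measured probe sets without those suffixes, 191 were that much higher. With the floor at the 75th percentile the log2 ratio of Igk was 0.55, and Ighg3, Iglv1 and Mzb1 were below the floor on both arrays.

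**Figure D2:**
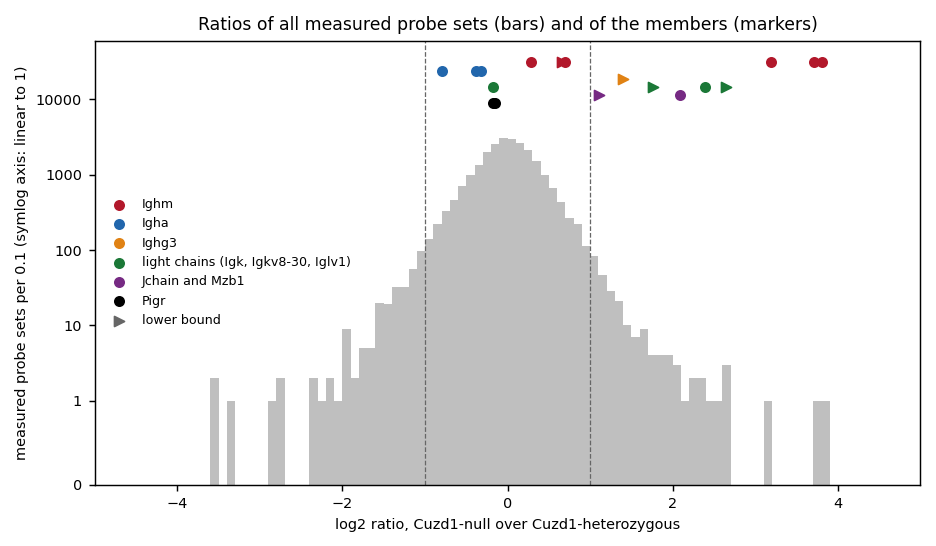
Log2 ratios of Cuzd1-null over Cuzd1-heterozygous for all 24260 measured probe sets (grey bars, number per bin of 0.1, symlog axis) and for the 18 measured member probe sets (markers, 1 colour per gene or group, triangles for lower bounds; their height has no meaning). Dashed lines mark 2-fold; 3 Ighm markers lie at the far right end of the bars, whose floored ratios are bounds for probe sets below 1 floor, and those of Igha and Pigr lie left of 0 inside the dashed lines (Pigr right of 0 when rescaled to the hybridization controls).

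The arrays as a whole set the frame for these values. Both carried 1 scaling by the authors to a trimmed mean of 150.0 units. The 9 hybridization control probe sets had a median log2 ratio of -0.23, and rescaling to them moved the median of all measured probe sets to 0.23 and gave 639 higher and 127 lower by 2-fold or more, against 234 higher and 288 lower as deposited. Cuzd1 itself read 33.98 units in null cells and 32.4 units in heterozygous cells, within 2 units of the floor on either array, so the targeted gene does not check the labels. The sources used here do not say whether its probe set lies inside the deletion.

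The genes that surround antibody production were described through lists taken from general knowledge. Some lists share a gene and are not separate. Thy1 is in the T and NK cell and fibroblast lists, and Madcam1 in the homing and lymph node lists. Fcmr is in the B cell and immunoglobulin receptor lists. Each gene was represented by its brightest probe set, and over all 11893 measured genes 1.12% were higher by 2-fold or more, 1.03% lower, and the median log2 ratio was 0.03. A gene above the floor on 1 array alone had its direction fixed by that, unless its signal lay between the 2 floors (as for Cd2, at -0.05). Counts above both floors are therefore given beside the others where they differ. In pooled cells, more cells of a type and more RNA per cell cannot be told apart.

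B cell genes were mostly dim. Of 20 listed genes 12 were measured, 11 above 0 and 1 below, with a median log2 ratio of 0.41, but 5 of the 11 were above the floor on the null array alone. Among the 7 above both floors, 6 were above 0 and the median was 0.61. The 19 listed genes with a probe set had a summed signal of 1266 units in null cells and 838 units in heterozygous cells. Ebf1, a transcription factor of early B cells that fat and stromal cells also express, was the 1 member at least 2-fold higher, at 113 units in null cells and 46.9 units in heterozygous cells (2.41-fold), and its other measured probe sets had log2 ratios of 0.52 to 0.85. The defining B cell genes were near the floor. Ms4a1, which encodes CD20, read 51.1 units in null cells and 21.9 units in heterozygous cells, at least 1.49-fold higher. Cd79a, a signalling chain of the B cell receptor, read 42.7 units in null cells and 25.9 units in heterozygous cells, at least 1.25-fold higher. Cd22, an inhibitory co-receptor, read 67.0 units in null cells and 38.3 units in heterozygous cells. Cd72 was the 1 measured gene below 0, at 71.4 units in null cells and 80.5 units in heterozygous cells. Cd79b, Blk, Fcrla, Fcer2a, Spib, Btk and Vpreb3 were below both floors.

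Plasma cell genes lay mostly below 0. Of 20 listed genes 16 were measured, 4 above 0 and 12 below (3 and 11 above both floors), none was 2-fold apart, and the median log2 ratio was -0.18 (0.05 when rescaled to the hybridization controls). The brightest members are secretory genes that milk-producing epithelium uses as well. Xbp1, the transcription factor of the secretory apparatus, read 7287 units in null cells and 8381 units in heterozygous cells, and Ssr4, a subunit of the translocon-associated complex, 4777 units in null cells and 6346 units in heterozygous cells. Other genes of the list lay on both sides of 0. Sdc1, the surface proteoglycan CD138 that epithelium also carries, read 557 units in null cells and 676 units in heterozygous cells, although its 3 other measured probe sets had -0.07 to 0.33. Derl3, a degradation factor of the endoplasmic reticulum, read 80.1 units in null cells and 102 units in heterozygous cells. Prdm1, the regulator of plasma cell differentiation, read 76.5 units in null cells and 56.5 units in heterozygous cells, a log2 ratio of 0.44. Pou2af1, a B cell co-activator of octamer-binding factors, read 43.1 units in null cells and 16.7 units in heterozygous cells, at least 1.26-fold higher. Tnfrsf13b, a receptor for survival factors, read 12.3 units in null cells, below the floor, and 34.7 units in heterozygous cells, just above it. That is a bound of at least 1.07-fold lower. Tnfrsf17 and Irf4 were below both floors.

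Homing and survival factors of plasma cells lay on both sides of 0, with 7 of 12 measured genes above and 5 below (5 and 5 above both floors), and a median of 0.10. Ccl28, the epithelial chemokine that draws IgA-producing cells to the lactating gland, was the 1 member at least 2-fold lower, at 48.2 units in Cuzd1-null cells and 135 units in Cuzd1-heterozygous cells (2.81-fold), with -0.59 at its other probe set. Madcam1, the vascular adhesion molecule for gut-homing lymphocytes, read 77.7 units in null cells and 146 units in heterozygous cells, and Ccl25, a second mucosal chemokine, 42.5 units in null cells and 76.5 units in heterozygous cells, although its other probe set had 0.24. Itga4, an integrin chain of migrating lymphocytes, read 65.1 units in null cells and 29.6 units in heterozygous cells, at least 1.90-fold higher.

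Genes of epithelial transcytosis, the route taken by the receptor and its cargo, were all measured, 8 above 0 and 7 below, with a median of 0.01 and none 2-fold apart. Snx17, an endosomal sorting nexin, had a log2 ratio of 0.31 and Cltc, the clathrin heavy chain, -0.05. Immunoglobulin receptors other than Pigr had a median of 0.21 over 9 measured of 12, again with none 2-fold apart. Fcgr2b, the inhibitory IgG receptor, had -0.23, and B2m, the light chain of the neonatal Fc receptor and of class I molecules, 0.01. The neonatal receptor itself, Fcgrt, which moves IgG across cells, read 203 units in null cells and 175 units in heterozygous cells.

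**Figure D3:**
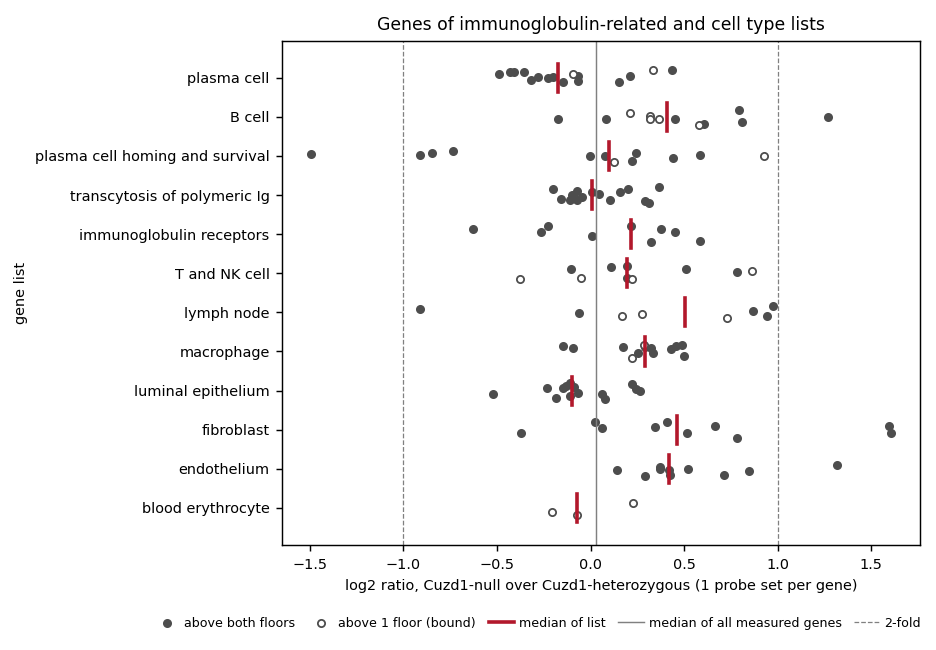
Log2 ratios of Cuzd1-null over Cuzd1-heterozygous for the measured genes of 12 lists, 1 point per gene at its brightest probe set (open points: above the floor on 1 array only, so a bound), with the median of each list in red and that of all measured genes, 0.03, as a grey line. B cell, lymph node, fibroblast and endothelium lists have medians above 0.40, and plasma cell, luminal and blood erythrocyte lists have medians below 0 as deposited, but above 0 when rescaled to the hybridization controls.

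Genes of several other cell types also differed in signal between the pools, and their part in the result was not tested. Of 14 lymph node genes 8 were measured, 6 above 0 with a median of 0.50, but 3 of the 6 were above the floor on the null array alone. Of the 5 above both floors, 3 were above 0 and 2 below, with a median of 0.87. The list had a summed signal of 1494 units in null cells and 941 units in heterozygous cells. Cd52, a surface protein of lymphocytes, read 522 units in null cells and 272 units in heterozygous cells, and Ptprc, the leukocyte antigen CD45, 344 units in null cells and 188 units in heterozygous cells. Cxcl13, the chemokine of B cell follicles, read 47.3 units in null cells and 49.3 units in heterozygous cells, although another of its probe sets had 0.72, and Ccr7 and Cxcr5 were below both floors. A probe set shared by several copies of the lymphoid chemokine Ccl21, picked out after its value was seen, read 325 units in null cells and 81.8 units in heterozygous cells, rank 11 of 20776.

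For T and NK cells the median was 0.19 over 10 measured of 18 genes, 7 above 0 and 3 below (5 and 1 above both floors), with none 2-fold apart and a summed signal of 1008 units in null cells and 737 units in heterozygous cells. Cd3g, a chain of the T cell receptor complex, read 62.2 units in null cells and 10.7 units in heterozygous cells, at least 1.82-fold higher, and Cd8a, a co-receptor, 47.5 units in null cells and 50.9 units in heterozygous cells. The other CD3 chains Cd3d and Cd3e, and Cd4, were below both floors. Macrophage genes had a median of 0.29, 11 of 13 measured genes above 0 (9 of 11 above both floors), with 17609 units summed in null cells and 14945 units in heterozygous cells. Fibroblast genes had a median of 0.46, with 2 of 10 at least 2-fold higher, Col1a2 (3.02-fold) and Pdgfra (3.05-fold, but 0.04 at its other probe set). Endothelial genes had a median of 0.42, all 10 above 0 at the brightest probe set, with Vwf 2.49-fold higher. Cdh5 had 0.29 there but -0.54 at its other measured probe set. Luminal epithelial markers were bright on both arrays, 5 above 0 and 9 below, with a median of -0.10 (0.13 when rescaled to the hybridization controls) and a summed signal of 107350 units in null cells and 112322 units in heterozygous cells. Of 8 erythrocyte genes 3 were measured, each on 1 array only, so no direction is given. Hba-a2, an alpha globin, read 32.6 units in null cells and 18.3 units in heterozygous cells, and Hbb-b2, a beta globin, 23.9 units in null cells and 37.5 units in heterozygous cells.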

How the data were processed

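Pooled RNA of 5 mice per genotype was read on 1 array each. Per the submitters' processing notes, the authors made the deposited intensity values, 1 linear signal per probe set, in Affymetrix Expression Console version 1 by MAS5. No genome build is given in the sources used here. The file holds 45101 probe sets, 64 of them controls. Genes were named from the platform annotation: 34945 non-control probe sets have 1 symbol, 932 several and 9160 are not listed. Symbols were updated by Entrez ID in the RefSeq table (34754 matched).

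Each array was floored at its own 50th percentile, and log2 ratios, null over heterozygous, were computed with Python 3.11.15, numpy 2.4.6 and pandas 2.3.3. The 2-fold limit is a rule of size alone, and no test was run. Robust SDs (1.4826 times the median absolute deviation) over the 1000 measured probe sets nearest in signal describe spread between probe sets and are not replicate error. The calculation was tested on simulated data. Members and lists were chosen with earlier results of these data known. Named list genes are those 2-fold apart (at most 4, by size of ratio) or else the 2 brightest. The 2 brightest are not named for the T and NK cell, macrophage and luminal epithelium lists. Other list genes given were chosen after their values were seen. Floors, scaling and filters were varied.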

Additional observations from a re-analysis of the deposited data

How the results depend on the processing

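No paired analysis was possible because each genotype has 1 array. The number of member probe sets higher in null by 2-fold or more was 9 of 18 as reported and 18 of 30 with no floor. It was 13 of 24 with the floor at the 25th percentile, 5 of 12 at the 75th percentile and 5 of 13 above both floors. It was 9 with quantile normalization and with rescaling to the hybridization controls. The number lower by 2-fold or more was 0 under these settings except for 2 with no floor, Ighm 1427869_at and Ighg3 1426198_at, which are below both floors. The same steps moved the count of higher probe sets over all probe sets, 234 of 24260 as reported. That count was 4978 of 45037 with no floor, 1612 under the 25th percentile, 42 under the 75th percentile and 161 of 20776 above both floors. With quantile normalization it was 232, and with rescaling 639. The median log2 ratio of the measured member probe sets, 0.90 as reported, was 1.68 with no floor, 1.24 under the 25th percentile, 0.41 under the 75th percentile, 1.13 after rescaling and 0.28 above both floors. These settings counted 30, 24, 12, 18 and 13 probe sets in the same order. Taking the median over the measured probe sets of a gene gave 1.95 for Ighm and 1.23 for Igk, against 3.71 and 2.64 at the brightest. Of 56 alternative values for the member genes, 35 moved by less than 0.21, the robust SD per probe set between probe sets of 1 gene, and none that was 2-fold apart changed sign. Genes near the floor (Igk, Ighg3, Iglv1, Mzb1) are limited by signal over background.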

Other observations

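Immunoglobulin probe sets that were below both floors mostly read higher in the Cuzd1-null pool. Of 31 such probe sets, 23 (74.2%) had a higher signal in null cells, with a median log2 ratio of 0.83 when no floor was applied (quartiles 0.02 and 1.81). Over all 20777 probe sets below both floors, 45.0% were higher in null cells, with a median of -0.13 (quartiles -0.997 and 0.73). Signals this low are mostly background, and immunoglobulin probe sets share sequence, so these readings are not independent of each other. The 31 include 12 member probe sets, and the members were selected on this same contrast, so nothing is read from the gap. No cause was tested.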
